A study of Homo sapiens with 2 samples.

Results

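The genes described here are the DEAD and DEAH box helicases, chosen by their symbols: every gene named DDX or DHX followed by a number and at most 1 letter. The rule found 51 genes, 35 with a DDX symbol and 16 with a DHX symbol, among 16645 annotated genes with a read. A further 5 genes of GENCODE release 29 match the same rule and had no row among the counts. The reads came from GM12878, an established B-lymphoblastoid line made by transforming human B cells with Epstein-Barr virus. RNA was read natively on Oxford Nanopore flow cells, where a strand passes through the pore from its 3′ end and no PCR copy is made. There were 2 libraries in 1 group, called replicate 1 and replicate 2, with no treatment or second cell line. The labels do not say whether the replicates came from separate cultures, so each p-value here measures only a difference between 2 libraries, which may be technical.

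DEAD and DEAH box proteins bind RNA and use ATP to unwind short duplexes or to strip proteins from RNA. DEAD box enzymes act locally, prying strands apart without travelling along them, whereas many DEAH box enzymes move along a strand and pull on it. In human cells they remodel the spliceosome at its successive steps, fold and release precursors of the ribosome, load and export mRNA, and control translation and decay. A smaller set, including RIG-I, the product of DDX58, senses viral RNA. Their shared motif II is a short box of residues that helps to bind and split ATP.

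Motif II is shown first because the family is named after it. The sequences are coding-strand reference sequence, taken from GENCODE 29 transcripts on GRCh38, with the codons of the box in capitals. DDX39A lies on the minus strand at chr19:14410990-14411037 and DDX39B on the minus strand at chr6:31536501-31536548. DDX5 lies on the minus strand at chr17:64503227-64503274 and DDX17 on the minus strand at chr22:38494925-38494972. DHX15 lies on the minus strand at chr4:24556305-24556352 and DHX9 on the plus strand at chr1:182866999-182867043.
DDX39A: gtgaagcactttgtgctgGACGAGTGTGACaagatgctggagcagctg
DDX39B: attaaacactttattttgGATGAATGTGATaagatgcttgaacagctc
DDX5: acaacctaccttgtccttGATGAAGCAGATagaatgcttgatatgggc
DDX17: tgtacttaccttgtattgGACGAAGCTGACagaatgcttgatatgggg
DHX15: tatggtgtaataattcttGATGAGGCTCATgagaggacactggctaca
DHX9: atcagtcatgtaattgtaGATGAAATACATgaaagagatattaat

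The box of DDX5 and DDX17 is DEAD, that of DDX39A and DDX39B is DECD, that of DHX15 is DEAH and that of DHX9 is DEIH. Among the 50 protein-coding genes of the set, an in-frame DEAD box in a motif II context was found in 26, all with DDX symbols. A DEAH box was found in 9, of which 8 have DHX symbols and 1, DDX11, a DDX symbol. The remaining boxes were DEVH in 5 genes, DECD, DECH, DEIH and DEVD in 2 genes each, and DESD in 1, and the search found none in DHX32. Over all 19565 coding genes searched, 0.848% held DEAD and 0.388% held DEAH in frame in any context, and 2.01% held the motif II pattern with its hydrophobic flank. A match of letters is a description of the coding sequence and not a measurement of these cells.

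Some of these genes are closely related pairs. The coding sequences of DDX39A and DDX39B were 80.0% identical, and 36 of the 48 bases printed above were the same. DDX5 and DDX17 were 71.3% identical, with 37 of 48 bases shared. The closest pair of those compared was DDX19A and DDX19B, with 94.6% identity and the same 48 bases around the box. How reads were divided between such pairs was not tested. They lie side by side on chromosome 16, and their windows, both on the plus strand, are chr16:70366183-70366230 and chr16:70329390-70329437.
DDX19A: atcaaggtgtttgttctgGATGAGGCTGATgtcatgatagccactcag
DDX19B: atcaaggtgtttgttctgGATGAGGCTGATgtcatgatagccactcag

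The libraries held 1360368 and 1510998 reads, of which 98.9% in each were assigned to annotated genes. The B cell genes CD74, CD79A, CD79B, MS4A1, CD22 and PAX5 were present in both libraries, with CD74, the invariant chain of class II antigen presentation, at 7766 and 8088 CPM. Of the 7 markers of other lineages, 4 had no row, APOA1 had 1 read in all, COL1A1 had 2 and 3 reads, and the T cell gene CD3E had 5 and 16. Levels are given as reads in every 1000000 reads of the library, abbreviated CPM. Each strand gives at most 1 read, so CPM is not divided by transcript length. In CPM, 1 read is worth 0.735 in replicate 1 and 0.662 in replicate 2, and 0 reads allow a level of up to 2.21 and 1.99 CPM, the value of 3 reads. All intervals and limits of this kind cover counting error only. A standard deviation (SD) of 2 libraries does not measure counting error and can be smaller than it, so a small SD does not make a level precise.

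The helicase genes received 3422 reads in replicate 1 and 3538 in replicate 2, which is 0.254% and 0.237% of the reads of annotated genes. The mean share was 0.245% ± 0.012 (SD, n = 2). Of the 51 genes, 49 had reads in both libraries. The exceptions were DDX4, the germ-line helicase also called VASA, with 1 read in replicate 1 and 0 in replicate 2, and the pseudogene DDX12P with 0 and 1. Both are under the level that 0 reads allow. The median gene stood at 36.8 CPM in replicate 1 and 29.1 CPM in replicate 2. The 10 genes with the highest levels held 50.9% and 50.5% of all helicase reads.

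**Figure D1:**
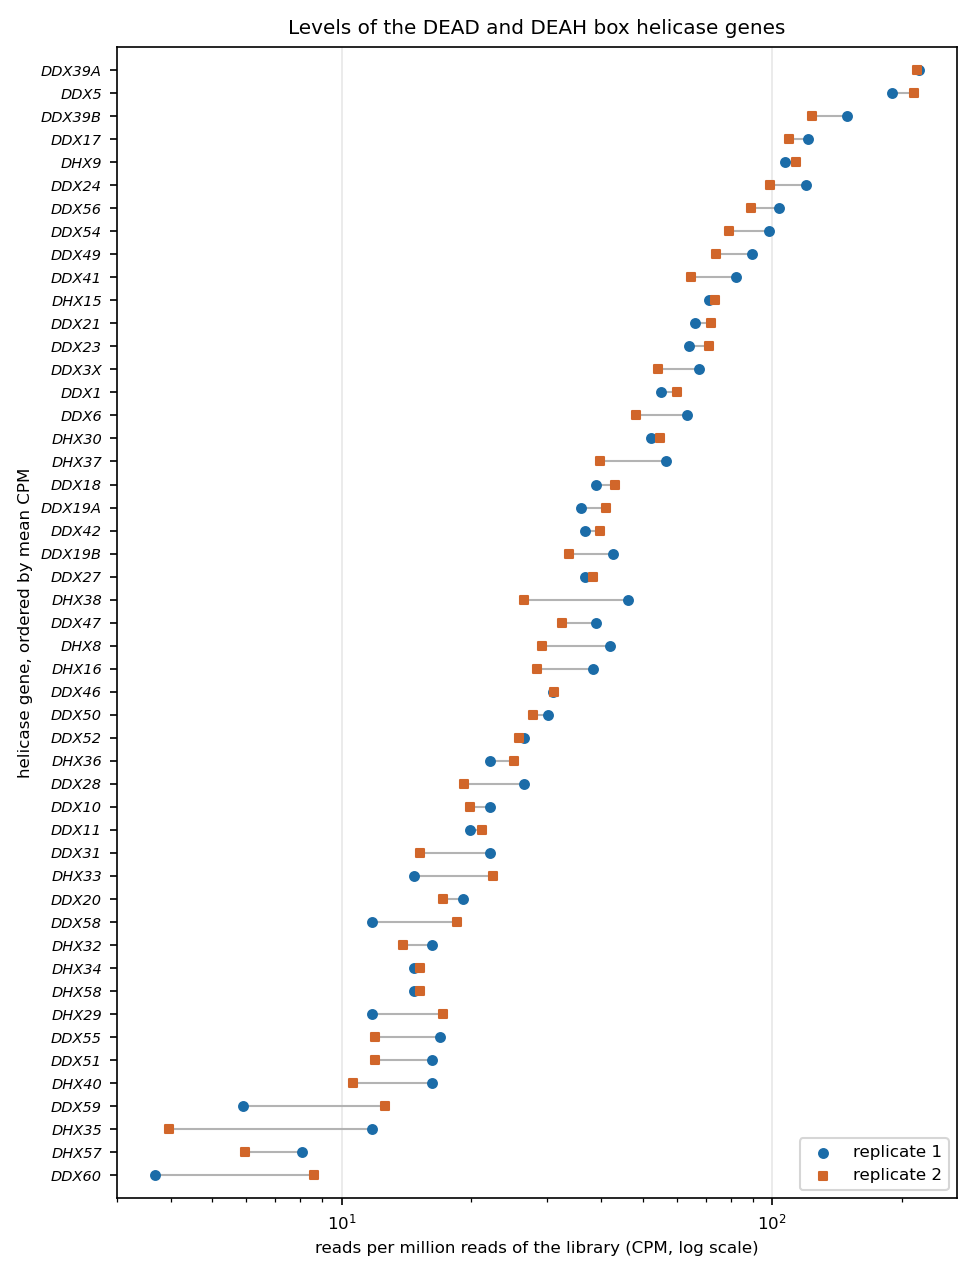
Reads in every 1000000 reads of the library (CPM, log axis) for the 49 helicase genes with reads in both libraries, ordered by their mean; circles are replicate 1, squares replicate 2, and the line joins them. DDX39A and DDX5 stand highest, at 218 and 202 CPM, and DDX60 lowest, at 6.14 CPM.

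The highest levels belonged to genes of splicing and mRNA packaging. DDX39A, a paralog of the mRNA export helicase UAP56, had 298 reads in replicate 1 and 327 in replicate 2, which is 218 ± 1.87 CPM (mean ± SD, n = 2). DDX5, also known as p68, had 258 and 323 reads, or 202 ± 17.1 CPM. DDX39B, which encodes UAP56 itself, had 203 and 187 reads, or 136 ± 18.01 CPM. These levels came in the same order in both libraries. In replicate 2 DDX39A and DDX5 were close, at 327 and 323 reads, and their order was not tested. DDX17, or p72, the paralog of DDX5, followed with 165 reads in each library and 115 ± 8.55 CPM. DDX17, DHX9 and DDX24 could not be ordered, since their ranges overlapped. DHX9, or RNA helicase A, had 146 and 172 reads at 111 ± 4.60 CPM.

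All 13 genes of the splicing and mRNP list together gave 1500 and 1559 reads, a summed level of 1067 ± 50.1 CPM. The spliceosomal DEAH helicases were read far less often than DDX39A or DDX5. DHX15, which takes apart the intron lariat spliceosome, was at 71.3 and 73.5 CPM. DHX38, DHX8 and DHX16, the human counterparts of yeast Prp16, Prp22 and Prp2, were at 36.4 ± 14.03, 35.5 ± 9.04 and 33.3 ± 6.91 CPM. DHX35 was the lowest of the list, with 16 and 6 reads. Among the DEAD box members, DDX41 was at 73.6 ± 12.4 CPM and DDX23, the human Prp28, at 67.7 ± 5.32 CPM. DDX46, the human Prp5, was at 31.0 ± 0.164 CPM, from only 42 and 47 reads. The ranges of DDX41, DHX15 and DDX23 overlapped, so their order is not resolved.

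The 16 ribosome biogenesis genes gave 1085 and 1061 reads, or 750 ± 67.5 CPM together. DDX24, DDX56, DDX54 and DDX49, counterparts of the yeast assembly factors Mak5, Dbp9, Dbp10 and Dbp8, led the list. DDX24 had 163 and 149 reads at 109 ± 15.0 CPM. DDX56 had 141 and 135 reads at 96.5 ± 10.1 CPM, and DDX54 had 134 and 120 reads at 89.0 ± 13.5 CPM. DDX49 followed with 122 and 112 reads at 81.9 ± 11.0 CPM. These 4 genes had more reads in replicate 1 than in replicate 2, and the range of each overlapped that of the next. DDX21, a nucleolar helicase that also acts on transcription by RNA polymerases I and II, was at 69.2 ± 4.23 CPM. Its neighbour and paralog on chromosome 10, DDX50, was at 28.97 ± 1.66 CPM, and every library of DDX21 lay above every library of DDX50. The lowest of the list was DDX51, at 14.04 ± 3.01 CPM.

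The 10 genes of export, translation and decay gave 598 and 644 reads, or 433 ± 9.46 CPM. Besides DHX9, the most read was DDX3X, which helps ribosomes start on structured leaders, with 92 and 82 reads at 61.0 ± 9.45 CPM. DDX1 had 75 and 91 reads, and DDX6, a decay and translational repression factor of P bodies, had 86 and 73. DDX3X, DDX1 and DDX6 overlapped in range. DDX19A and DDX19B, the counterparts of the yeast nuclear pore helicase Dbp5, stood at 38.5 ± 3.54 and 38.2 ± 6.28 CPM.

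The remaining lists were small. The 2 mitochondrial genes, DHX30 and DDX28, were at 53.6 ± 1.94 and 22.8 ± 5.14 CPM. The 3 RNA sensing genes were among the low ones. DDX58 had 16 and 28 reads, DHX58, which encodes LGP2, had 20 and 23, and DDX60 had 5 and 13. Their sum was 36.2 ± 8.64 CPM. The DNA helicase gene DDX11 had 27 and 32 reads. Of the related helicases without a DDX or DHX symbol, EIF4A1, the cap-binding complex helicase, had 1119 and 621 reads, more than any DDX or DHX gene. EIF4A3, a core protein of the exon junction complex, had 163 and 177, and SNRNP200, the U4/U6 unwinding helicase, had 128 and 133.

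No helicase gene was called as different in count between the libraries, though low counts limit what a test can call in most single genes. An exact binomial test against the library totals, with Benjamini-Hochberg adjustment over all 10634 genes with at least 10 reads, called 0 of the 49 helicase genes tested, where it called 5.05% of all genes tested. At an unadjusted p under 0.05 there were 3 of the 49 helicase genes and 1681 of all 10634 genes, or 15.8%. The smallest adjusted p of this exact binomial test was 0.0855, for DHX38, which had 63 and 40 reads, a log2 ratio of replicate 2 to replicate 1 of -0.80. DHX35 had the lowest log2 ratio, -1.50, and DDX60 the highest, 1.14, both from under 20 reads in each library. The log2 ratio was within 1 of 0 for 46 of the 49 genes. The median was -0.15, against 0.01 over all genes tested, and 28 ratios were negative and 21 positive. EIF4A1 was the only one called of the 14 other helicases tested, at 823 CPM in replicate 1 and 411 CPM in replicate 2 (adjusted p = 8.47e-43 in the same exact test).

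Each transcript model in the table belongs to a category, which says how its splicing relates to the annotation. Known models carry the full exon chain of a GENCODE transcript. ISM models, for incomplete splice match, hold only a run of such a chain, and are suffixes when they keep its 3′ end. NIC models join annotated splice sites in a new way, NNC models hold a splice site that is not annotated, and genomic models overlap the gene without matching its splicing, which by the table means 1 exon in 99.5% and 99.9% of helicase genomic reads.

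Known models took 30.8% and 18.4% of helicase reads in replicates 1 and 2, on average 24.6% ± 8.79 (SD, n = 2). Over all annotated genes the shares were 56.5% and 46.4%. ISM models took 40.4% and 51.1% of helicase reads, against 24.0% and 32.3% over all genes. Genomic models took 16.9% and 23.9%, against 10.9% and 15.3%. So in both libraries the helicase genes had a smaller known share and larger ISM and genomic shares than the pooled genes, and replicate 2 lay below replicate 1 in known share for both. The pooled genes were not matched to the helicase genes in transcript length or level. NIC models took 5.20% and 3.17%, and NNC models 6.72% and 3.50%. The 95% Wilson intervals of the known share, 29.3% to 32.4% in replicate 1 and 17.2% to 19.7% in replicate 2, did not overlap.

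**Figure D2:**
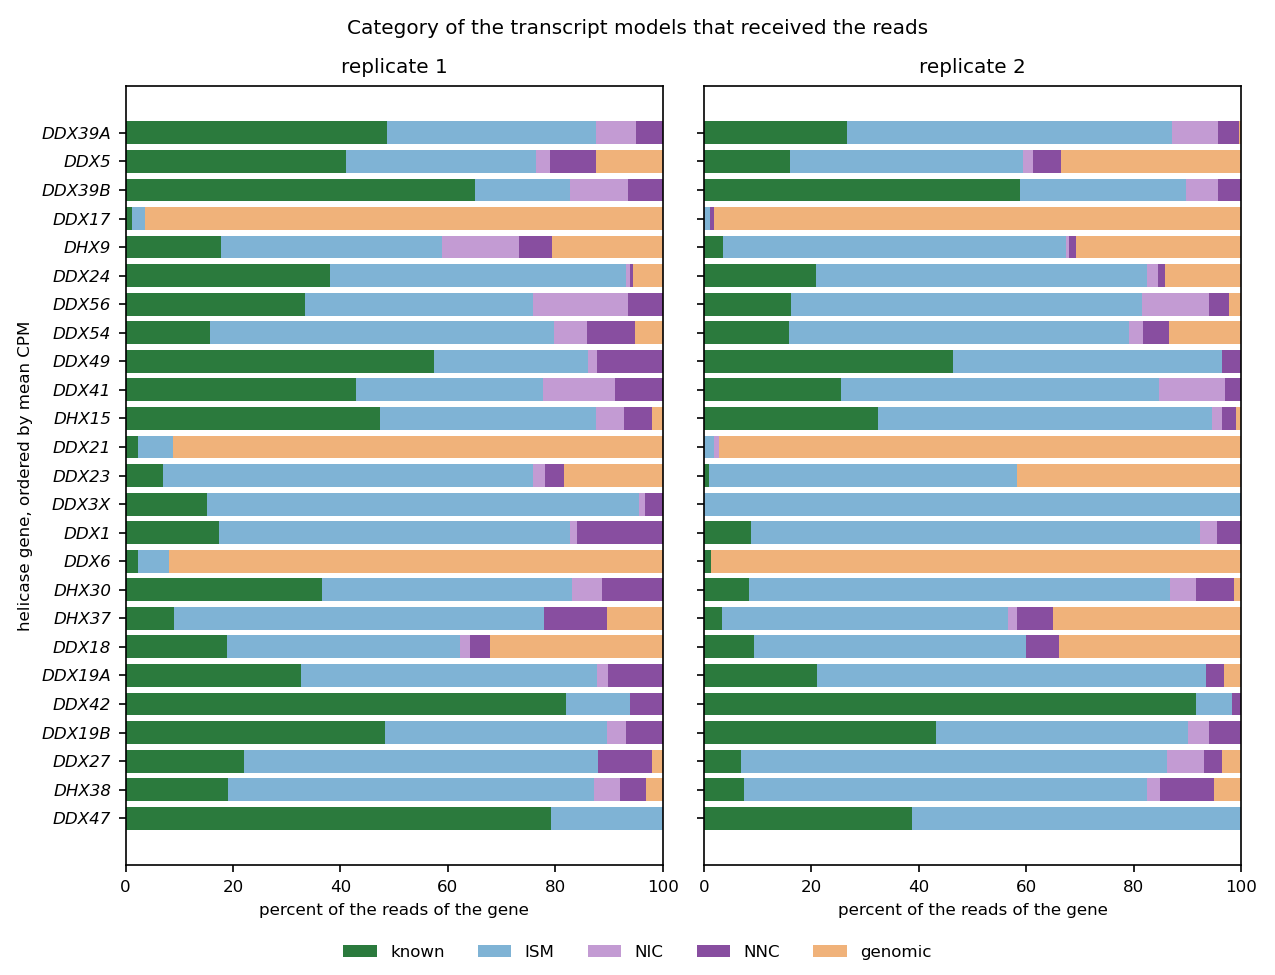
Percent of the reads of each helicase gene in known, ISM, NIC, NNC and genomic models, for the 25 genes with the highest mean CPM; the left panel is replicate 1 and the right panel replicate 2. DDX17, DDX21 and DDX6 are almost wholly genomic in both panels, DDX39B and DDX42 are mostly known, and most other bars have a shorter known segment in replicate 2.

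Most ISM reads kept the 3′ end of their gene. Suffix models held 79.7% and 78.5% of the helicase ISM reads, where they held 68.4% and 68.0% over all genes. The mean length of the known model behind a known helicase read was 2554 bases in replicate 1 and 2102 bases in replicate 2. Over all annotated genes the lengths for known reads were shorter, at 1563 and 1405 bases. Helicase ISM reads fell on models of 1681 and 1425 bases. Of the 1542 helicase models, 951 rested on 1 read and 439 were seen in both libraries. Of the known models, 63 of 105 were seen in both libraries, and of the genomic models 43 of 71. Of the ISM models 298 of 870 recurred, of the NIC models 15 of 202, and of the NNC models 20 of 294.

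Genes with DHX symbols had the smaller known shares, 19.7% and 9.75%, against 33.9% and 20.7% for DDX symbols. By role, the splicing list had 36.3% and 23.9% of its reads in known models, ribosome biogenesis 28.7% and 16.0%, and export, translation and decay 19.7% and 8.85%. These 3 lists kept the same order in both libraries. The mitochondrial list of 2 genes was higher, at 57.9% and 32.1%. The RNA sensing list, with 41 and 64 reads, was at 17.1% and 12.5%. It lay below export, translation and decay in replicate 1 and above it in replicate 2. All these shares are pooled over reads, so a few abundant genes carry them.

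The share of known reads was tested gene by gene with Fisher's exact test, over the 40 helicase genes with at least 20 reads in each library. With Benjamini-Hochberg adjustment over all 6340 genes tested, 10 of the 40 differed between the libraries, and each was lower in replicate 2. Over all genes the test called 27.1%, and 26.9% were called as lower in replicate 2, so the helicase share is near the background. The median difference over the 40 genes was -8.44 percentage points, against -8.62 over all genes tested.

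**Figure D3:**
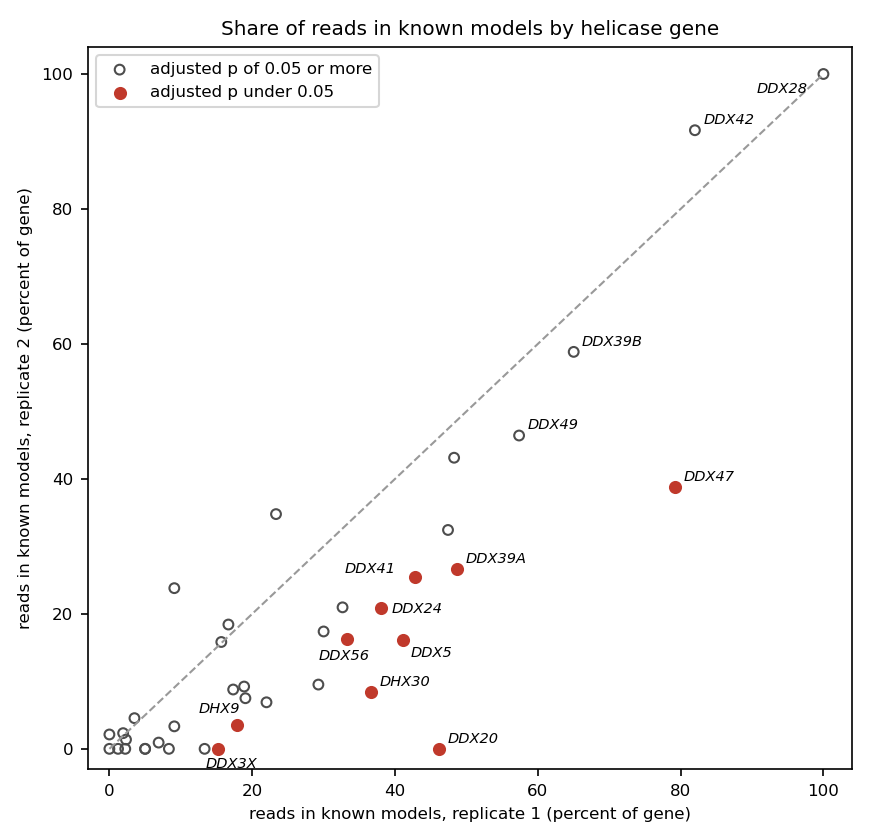
Percent of the reads of a gene in known models in replicate 1 (horizontal axis) and replicate 2 (vertical axis) for the 40 helicase genes with at least 20 reads in each library; the dashed line marks equal shares and filled points passed Fisher's exact test at an adjusted p under 0.05. All 10 filled points lie below the line, and DDX42 and DDX28 stand at the top right.

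DDX5 showed the smallest p. It had 106 known reads of 258 in replicate 1 and 52 of 323 in replicate 2, which is 41.1% and 16.1% (Fisher's exact test, adjusted p = 9.94e-10). Its protein-coding transcript DDX5-201, with 13 exons and 2554 bases, went from 97 to 46 reads, while a single-exon genomic model went from 32 to 107. The total for DDX5 thus rested on different models in the libraries. DDX39A had 145 known reads of 298 and then 87 of 327, or 48.7% and 26.6% (exact test, adjusted p = 3.34e-07). Its ISM reads were 116 and 198. DDX39A-201, with 11 exons and 1471 bases, held nearly all of its known reads, 143 and 86.

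In the other genes called the known counts were smaller. DHX9 had 26 and 6 known reads, 17.8% and 3.49%, and its 28-exon transcript DHX9-201 had 20 and then 2. DHX30, a mitochondrial ribosome assembly factor, had 26 and 7, or 36.6% and 8.43%. DDX47 had 42 and 19, or 79.2% and 38.8%. Nearly all other DDX47 reads lay in 1 ISM model of the last exon alone, 559 bases long, with 10 and 27 reads. DDX3X had 14 known reads of 92 in replicate 1 and 0 of 82 in replicate 2. DDX20, also called Gemin3, had 12 known reads of 26 and 0 of 26. Known reads of DDX20 and DDX3X were thus seen in replicate 1 alone, and 0 reads there allow up to 3. DDX24, DDX56 and DDX41 had known shares of 38.0%, 33.3% and 42.9% in replicate 1, and 20.8%, 16.3% and 25.5% in replicate 2. The largest adjusted p of the 10, from the same exact test, was 0.0366 for DDX41.

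Not all genes had a lower known share in replicate 2. DDX42, a U2 snRNP helicase, went from 82.0% to 91.7% and DDX54 from 15.7% to 15.8%, and neither passed the test. Of the 40 genes tested, 30 had a lower share in replicate 2 and 8 a higher one. The highest shares averaged over the libraries belonged to DDX28, DDX42, DDX39B, DDX47 and DDX49. DDX28 is annotated as a single-exon gene and had only known reads, 36 and 29. DDX49 had 57.4% and 46.4%.

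At the other end, DDX11, DDX17, DDX46, DDX21 and DDX6 had almost no known reads. DDX11 had 0 of 27 and 0 of 32, and DDX46 had 0 of 42 and 1 of 47. DDX17 had 2 and 0 known reads of 165 in each library, and DDX21 2 of 90 and 0 of 109. DDX6 had 2 of 86 and 1 of 73. The level of DDX17, the fourth highest of the family, therefore rested almost wholly on reads that matched no annotated splice chain.

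Those reads of DDX17 lay almost all in single-exon genomic models. DDX46 had 76.2% and 83.0% of its reads in ISM models instead, and DDX11 had 40.7% and 46.9% there. Among the genes with at least 20 reads in each library, the highest genomic shares were those of DDX17, DHX33, DDX6, DDX21 and DDX52. In DDX17, 1 genomic model held 155 and 156 of the 165 reads. The table lists this model at a length of 8 bases, so its stated length is not that of the reads. In DDX6, 1 model listed at 944 bases held 76 and 68 reads. In DDX21, a pair of models held 43 and 39 reads in replicate 1 and 78 and 28 in replicate 2. In DHX33, 1 model of 1723 bases held 18 of 20 and 33 of 34 reads. In their longest annotated protein-coding transcripts, DDX17, DDX6, DDX21 and DHX33 have 3′ terminal exons of 3001, 4332, 2525 and 3602 bases. No read sequences or alignment positions were analysed here, so whether the reads lay in those exons was not tested.

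Over the 40 genes with at least 20 reads in each library, genes with longer 3′ terminal exons had more of their reads in single-exon models. This relation was chosen after its values were seen. The exon used is that of the longest annotated protein-coding transcript of each gene, which is not always a transcript that was read. Spearman's rho across genes was 0.741 in replicate 1 and 0.716 in replicate 2, where both quantities depend on the same annotation and genes are not independent replicates. Among the 20 genes with a terminal exon under 1000 bases, the median single-exon share was 5.37% and 11.2%. Among the 20 with 1000 bases or more it was 36.7% and 52.9%. These include DDX28, whose only annotated exon of 2169 bases fixes its share at 100%. Single-exon reads made up 23.4% and 33.1% of all helicase reads, against 22.2% and 28.5% over all annotated genes.

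**Figure D4:**
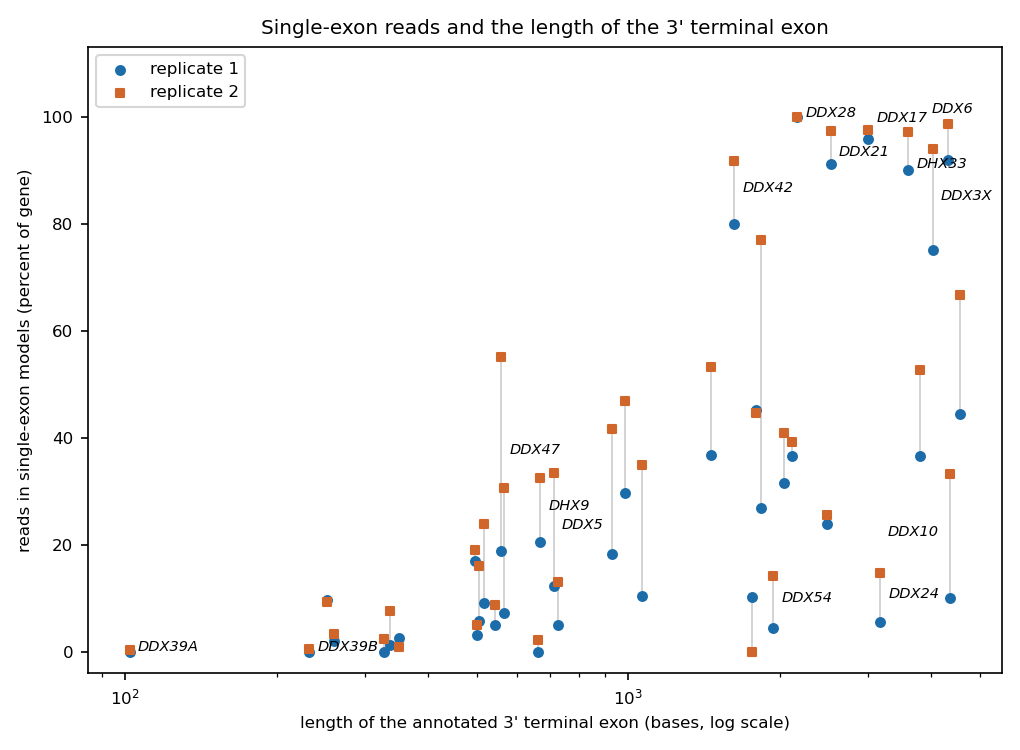
Percent of the reads of a gene in single-exon models (vertical axis) against the length of its annotated 3′ terminal exon in bases (log axis) for 40 helicase genes; circles are replicate 1, squares replicate 2, joined by a line. DDX39A, with 102 bases, lies near 0, DDX17, DDX21, DDX6 and DHX33 lie above 90% or at it, and DDX24, DDX10 and DDX54 lie low for their exon length. The exon is that of the longest annotated protein-coding transcript, which for DDX10 is not the known transcript that was read.

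The genes named in the exon plot show both the trend and its exceptions. DDX39A and DDX39B, with terminal exons of 102 and 232 bases, had 1 single-exon read each, both in replicate 2. DDX3X, with 4029 bases, had 69 and 77 reads in 1 single-exon ISM model of 2561 bases, which is 75.0% and 93.9% of its reads. DDX19A had 18 and 31 reads in a single-exon ISM model of 1459 bases, the length of its terminal exon. The exceptions had long exons and few such reads. DDX24, with 3172 bases, had 5.52% and 14.8%. DDX10, with 4371 bases in its longest coding transcript DDX10-203, had 10% and 33.3%. The longest known DDX10 model with a read, DDX10-201, has only 3264 bases in all, so DDX10 may not be an exception. DDX54, with 1939 bases, had 4.48% and 14.2%. DDX19B, with 1763 bases, had 6 single-exon reads of 58 in replicate 1 and 0 of 51 in replicate 2. Transcript length went the same way for known reads, with a rho of -0.635 and -0.616 between annotated length and known share. The ISM share and the length of the known models had a rho of 0.492 and 0.607 over 38 genes.

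Some long transcripts were still among the known reads. The longest known helicase model seen in both libraries was DHX36-213, of 6733 bases and 25 exons, with 1 read in each. DDX24-209, 5612 bases in 9 exons, had 51 and 11 reads, and DHX8-201, of 5558 bases, had 1 and 2. Retained intron transcripts of DDX39B, 5158 bases, and DDX19A, 5007 bases, came next in length. Apart from DDX24-209, these rested on 1 to 4 reads in a library.

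Which known transcript led was the same in the libraries for 9 of the 11 genes with at least 20 known reads in each. The exceptions were DDX24 and DHX15. Among the 9 is DDX28, which had only 1 known model, so its leading transcript could not differ. The share of the main known transcript among known reads could be tested in 10 genes, and Fisher's exact test called 2 of them, against 12.5% of the 1878 genes tested. DDX24-209 fell from 82.3% to 35.5% of known DDX24 reads (adjusted p = 0.000289 in Fisher's exact test), while the retained intron transcript DDX24-208, of 656 bases, had 3 and 16 reads. Another retained intron transcript, DDX24-206, of 810 bases, had 7 and 4. DHX15-201, of 2994 bases, fell from 73.9% to 19.4% (adjusted p = 4.10e-05 in the same exact test), from 34 to 7 reads. The shorter transcripts DHX15-209 and DHX15-208 had 5 and 11 reads and 3 and 13 reads. Both genes thus had fewer reads of their main coding transcript in replicate 2.

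Retained intron transcripts made up 11.2% and 24.4% of known helicase reads, against 4.24% and 7.07% over all genes. In reads this was 118 and 159, of which 1 transcript of 1 gene, DDX42-214, gave 40 and 55. Protein-coding transcripts made up 85.1% and 67.1%. Several of these are short models that start inside an intron and run into the next exon. The leading one was DDX42-214, a single exon of 2244 bases on the plus strand at chr17:63817073-63819316, with 40 reads of 50 in replicate 1 and 55 of 60 in replicate 2. It begins 621 bases before the acceptor of the last exon of DDX42-202 and covers the 1623 bases of that exon. Of the high known share of DDX42, then, almost all lay in 1 transcript that has no splice junction. In DDX39B the model of this kind was DDX39B-217, with 6 and 27 reads. It has 974 bases and starts 339 bases before the acceptor of exon 8 of 11. The coding transcripts DDX39B-214 and DDX39B-202 had 73 and 59 and 49 and 22 reads. In DHX15 it was DHX15-209, which is labelled a processed transcript and starts 1113 bases before the acceptor of exon 13 of 14. In DDX49 it was DDX49-205, with 9 and 11 reads, which starts 22 bases before the acceptor of exon 11 of 13.

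The acceptors that these annotated models run through are shown because they mark where the intronic start of each model meets annotated exon. Each window is reference sequence from GENCODE 29 transcripts on GRCh38, on the strand of the gene, with the AG of the acceptor in capitals, so the letters before it are intron and those after it are exon. The positions are chr17:63817669-63817718 on the plus strand for DDX42, chr4:24529746-24529795 on the minus strand for DHX15, chr6:31531381-31531430 on the minus strand for DDX39B and chr19:18927744-18927790 on the plus strand for DDX49.
DDX42-214: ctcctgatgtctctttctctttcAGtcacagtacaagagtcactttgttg
DHX15-209: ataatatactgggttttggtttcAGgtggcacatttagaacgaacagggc
DDX39B-217: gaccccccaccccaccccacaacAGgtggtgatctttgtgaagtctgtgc
DDX49-205: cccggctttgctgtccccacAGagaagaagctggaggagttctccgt

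A known model is matched by its exon chain, and read positions were not analysed here. Whether the reads of these models start inside the intron was therefore not tested. If one does, the counts cannot show whether it is a whole RNA or the 3′ part of a longer unspliced one. This too was not tested.

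Most spliced models outside the annotation rested on 1 read, as they did over all genes. There were 202 NIC and 294 NNC models, of which 173 and 267 rested on 1 read. Over all annotated genes, 27721 of 36019 NIC and 41900 of 49907 NNC models did. The best supported NIC model belonged to DDX56, with 5 exons and 2277 bases, at 20 and 11 reads. No other helicase NIC model had more than 4 reads in its lower library. The best supported NNC model belonged to DDX39A, with 10 and 4 reads, and the next to DDX5, with 3 and 4. Among ISM models, the highest after the DDX3X exon was the DDX39A model of 10 exons and 1401 bases, with 41 and 36 reads, 1 exon short of DDX39A-201. A DDX5 model of 2 exons had 24 and 47 reads, and a DDX24 model of 5 exons had 21 and 32.

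Some suffix reads of 2 helicase genes may stand under other symbols. ATP6V1G2-DDX39B, a readthrough gene that shares 11 splice junctions with DDX39B, had 120 and 158 reads, of which 120 and 155 lay in 5 suffix models and 0 in a known model. DDX39B itself had only 30 and 46 suffix reads. APOLD1, whose annotation shares 11 junctions with DDX47, had 72 and 97 reads, of which 57 and 78 lay in 18 suffix models and 0 in a known one. Reads that end inside shared exons cannot be told apart between the genes of each pair.

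Counting those suffix reads with the helicase, an alternative chosen after the data were seen, changed levels and known shares. DDX39B then had 323 and 342 reads, or 232 ± 7.85 CPM, and stood first in the family. Its known share became 40.9% and 32.2% in place of 65.0% and 58.8%. DDX47 then had 110 and 127 reads, or 82.5 ± 2.26 CPM, and stood ninth. Its known share became 38.2% and 15.0%, a difference of -23.2 points in place of -40.5 (Fisher's exact test, adjusted p = 0.000533). The known share of DDX39B did not pass the test either way, with an adjusted p of 0.398 before and 0.0781 after in Fisher's exact test.

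Known shares of the other helicases varied widely. Of the 14 with reads in both libraries, 11 had a lower known share in replicate 2. MOV10 went from 44.9% to 7.23%, and EIF4A1 stayed high, at 78.8% and 75.5%. SNRNP200, a long transcript, was at 8.59% and 3.76%.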

How the data were processed

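Direct RNA reads of 2 GM12878 libraries were analysed. Raw counts of reads per transcript model, as deposited in 1 table made with TALON per its name, were used without normalization by the authors. The authors also list the exon number and length of each model, other properties that are not measurements. The submitters' processing notes name minimap2 and hg38. Versions, filters and the annotation release are not given in the sources used here. Symbols were matched to GENCODE 29, from which all sequences came. Members, lists and tests were chosen with earlier results of these data known. Columns of other samples numbered 0.

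Counts were summed per gene and divided by library totals. An exact binomial test compared the counts of each gene (10 or more reads together), and Fisher's exact test compared known shares and main transcript shares (20 or more reads in each library), with Benjamini-Hochberg adjustment over all genes tested and a threshold of 0.05. The scripts were tested on simulated data. Log2 ratios had 0.5 reads added. Alternatives used edgeR 4.0.16 and DESeq2 1.42.0 size factors, read minimums, model categories and leaving out each library. Named in full were the 10 highest genes, up to 10 called per test, the 5 highest and 5 lowest known shares, the 5 highest genomic shares, the best supported models and the longest known ones. Python 3.11.15 with scipy 1.17.1 was used.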

Additional observations from a re-analysis of the deposited data

How the results depend on the processing

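With 1 group of 2 libraries, no test between conditions could be made, and low counts limit most single genes. Over the alternatives run, main results stayed on their side of the threshold, near their count or within their error 50 times and moved 18 times. The 50 include the alternatives that left out 1 library. There the value of 1 library always lies within the SD of the mean of 2, so these could not count as moved. Counted in known models only, 10 of 26 helicase genes tested had different counts, all lower in replicate 2, against 30.4% of all genes, and the median log2 ratio became -0.86, against -0.55 over all genes. Without genomic models the count was 2 of 46, against 9.44% of all genes. The 2 were DHX37 and DDX20, both lower in replicate 2 and named after their values were seen. For the main transcript, a minimum of 50 known reads left 4 genes to test and 0 calls, and neither DDX24 nor DHX15 was then tested. Including ISM, NIC and NNC models gave 9 calls of 28, of which 8 were lower in replicate 2, against 29.9% of all genes. The most abundant model was the same in 4 of 4 genes at a minimum of 50, and in 15 of 29 over all models but genomic ones. The 15 include DDX28, which had only 1 model. The ISM share became 57.8% without genomic models and 56.5% over models with 2 or more exons. Over the latter the NIC share became 5.76% and the genomic share 0.0783%. With models of at least 2 reads, the NIC share became 1.97% and the NNC share 1.46%. The suffix share of ISM reads became 81.7% with models of at least 2 reads and 80.2% with at least 5. The helicase share of all reads became 0.116% of known reads and 0.225% without genomic models. The rho of ISM share and length became 0.285 with the longest known model. Leaving out each library gave ranges of 18.4% to 30.8% for known, 40.4% to 51.1% for ISM, 3.17% to 5.20% for NIC, 3.50% to 6.72% for NNC, 16.9% to 23.9% for genomic and 78.5% to 79.7% for suffix shares, and 0.237% to 0.254% for the helicase share. Ranked per kilobase, 9 of the 10 highest genes were still among the 10 highest, and by known models only 7. No paired analysis was possible because both libraries belong to 1 group.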
